A study of Mus musculus with 22 samples.

Results

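The intercalated disc is the end-to-end junction between cardiomyocytes, and 10 genes of it were followed here in ventricular cardiomyocytes of 6 groups of mice. They were chosen by name: the connexins Gja1, Gja5 and Gjc1, the adherens junction genes Cdh2, Ctnna1 and Ctnna3, and the desmosome genes Dsp, Pkp2, Jup and Dsg2. All 10 were found among the 46813 genes that the 3 deposited comparisons share, and all 10 passed the filter on low counts in each comparison. The study asked whether loss of CASK, SAP97 or dystrophin, which are proteins of the lateral membrane and the disc of cardiomyocytes, shifts gene expression.

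CASK KO mice (n = 3, mixed background, 10.1 to 11.3 weeks) carried MHC-Cre, a Cre recombinase driven by the alpha-myosin heavy chain promoter, and CASK fl/fl. CASK control mice (n = 3, mixed, 11 to 12.7 weeks) carried MHC-Cre without the floxed gene. SAP97 KO mice (n = 3, mixed, 10.7 to 13 weeks) carried MHC-Cre and SAP97 fl/fl, and SAP97 control mice (n = 3, mixed, 10.6 to 13 weeks) carried SAP97 fl/fl and no Cre. MDX mice (n = 4, MDX -/-, 10.9 to 17.7 weeks) were C57Bl/6Ros, except replicate 5, and carried the dystrophin mutation in every cell. MDX control mice (n = 5, wild type, 10.9 to 14.7 weeks) were C57Bl/6J or C57Bl/6, except replicate 5. Replicate 5 of either group was of mixed background, backcrossed 3 times. All mice were male, and each library came from 1 mouse. Cre therefore separated SAP97 KO from SAP97 control but was shared by CASK KO and CASK control, so in the SAP97 comparison Cre and the deletion cannot be told apart. The labels and the methods give SAP97 control mice no Cre, but a listing of the mice in the study gives them Cre, so this point is uncertain.

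Each of the 21 libraries used held between 24253610 and 42159185 reads counted on genes. Cask had 0.593 to 2.37 CPM (counts scaled to the library's total, by the TMM method over all 21 libraries) in CASK KO against 8.72 to 9.81 CPM in CASK control, and Dlg1, which encodes SAP97, averaged 12.1 CPM in SAP97 KO against 60.5 CPM in SAP97 control. Dmd averaged 104 CPM in MDX against 298 CPM in MDX control. All 10 cardiomyocyte markers, among them Myh6, Tnnt2 and Ryr2, were counted in every library, with summed levels of 77970 to 139115 CPM. Markers of other cells were also present: the 13 endothelial markers summed to 159 to 561 CPM and the 12 fibroblast markers to 181 to 621 CPM. MDX control replicate 3 stood apart with 25.3% of its counts on mitochondrially encoded genes, against 7.53 to 14.1% in the other libraries.

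Connexins form the channels of gap junctions, which pass current from cell to cell. The cadherin Cdh2 joins neighbouring cells, and alpha-catenins tie it to actin. Desmosomes use desmogleins such as Dsg2, with plakoglobin (Jup), plakophilin 2 (Pkp2) and desmoplakin (Dsp), to anchor the intermediate filament desmin. In the adult heart these structures are mixed in a single composite junction, in which alphaT-catenin (Ctnna3) binds Pkp2. Variants of several of these genes are known in arrhythmogenic cardiomyopathy.

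Ctnna3 was the member on which the results below turn, and Gja1 the connexin with the highest level, so their start regions are shown first. Both genes lie on mouse chromosome 10 (GRCm38), Gja1 at chr10:56377330-56402513 and Ctnna3 at chr10:63430098-65003667, both on the plus strand. The set of RefSeq promoters used here (GRCm38.p6) held 5 of the 10 members, with 3 start sites for Ctnna3 and 1 for Gja1. That the others were not found is a limit of this set. The 250 bases before each start are given 5′ to 3′ on the plus strand, with E-boxes (CANNTG, which reads the same on both strands) and AP-1 sites (TGAGTCA) in capitals.
Ctnna3 start 1, chr10:63429848-63430097: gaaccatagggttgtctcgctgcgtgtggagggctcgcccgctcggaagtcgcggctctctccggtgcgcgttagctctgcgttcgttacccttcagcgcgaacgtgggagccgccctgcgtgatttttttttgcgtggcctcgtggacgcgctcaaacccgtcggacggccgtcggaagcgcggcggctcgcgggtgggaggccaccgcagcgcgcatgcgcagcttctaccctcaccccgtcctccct
Ctnna3 start 2, chr10:63457261-63457510: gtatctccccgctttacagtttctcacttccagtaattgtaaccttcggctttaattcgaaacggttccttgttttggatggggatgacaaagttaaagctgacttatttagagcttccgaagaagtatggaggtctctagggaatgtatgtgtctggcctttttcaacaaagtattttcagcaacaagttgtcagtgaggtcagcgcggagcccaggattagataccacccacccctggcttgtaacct
Ctnna3 start 3, chr10:63820805-63821054: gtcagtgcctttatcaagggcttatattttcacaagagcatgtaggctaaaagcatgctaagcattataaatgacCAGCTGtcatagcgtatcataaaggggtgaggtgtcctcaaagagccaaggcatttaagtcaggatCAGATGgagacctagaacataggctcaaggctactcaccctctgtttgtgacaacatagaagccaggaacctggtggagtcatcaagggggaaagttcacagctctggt
Gja1, chr10:56377050-56377299: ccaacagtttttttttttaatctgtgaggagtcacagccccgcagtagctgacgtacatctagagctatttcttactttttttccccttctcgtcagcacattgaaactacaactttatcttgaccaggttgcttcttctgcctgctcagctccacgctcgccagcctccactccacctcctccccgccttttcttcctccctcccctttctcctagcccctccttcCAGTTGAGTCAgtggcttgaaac

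These motifs were searched because CASK is known to act with T-box and E-box-binding transcription factors. The T-box core TCACACC, searched on both strands, was in none of the 4 windows. Of the 32851 promoters in the set used, 3.33% held it in a window of this length. E-boxes were found at Ctnna3 start 3, with 2 matches, and at Gja1, with 1 match, where its last bases overlap the AP-1 site. An E-box was in 66.2% and an AP-1 site in 4.46% of all promoters. Ctnna3 start 1 held 36 CpG dinucleotides at 67.6% G and C, a number that 2.58% of promoters reach, whereas start 2 held 7 and start 3 held 1. Which start was used is not resolved by counts per gene.

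The members' levels differed widely. Over the 21 libraries and per exon length, Dsp had the highest level with 283 ± 97.6 TPM (transcript abundance relative to the library's total, mean ± SD), followed by Gja1 with 278 ± 87.5 TPM and Ctnna1 with 187 ± 48.8 TPM. Cdh2 (61.1 ± 17.0 TPM), Pkp2 (37.3 ± 11.1 TPM), Jup (31.7 ± 10.1 TPM) and Dsg2 (17.3 ± 5.85 TPM) lay in between. Ctnna3 averaged 9.57 ± 4.98 TPM, Gjc1 2.65 ± 0.85 TPM and Gja5 0.560 ± 0.181 TPM. Neighbours in this order overlapped across libraries, except that every value of Ctnna1 was above every value of Cdh2, and every value of Gjc1 above every value of Gja5. Together, the 10 genes took 0.175 to 0.437% of a library's counts. Between the lowest and the highest group mean, Ctnna3 differed 6.70-fold in CPM, while the other 9 members differed 1.21- to 1.71-fold.

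**Figure D1:**
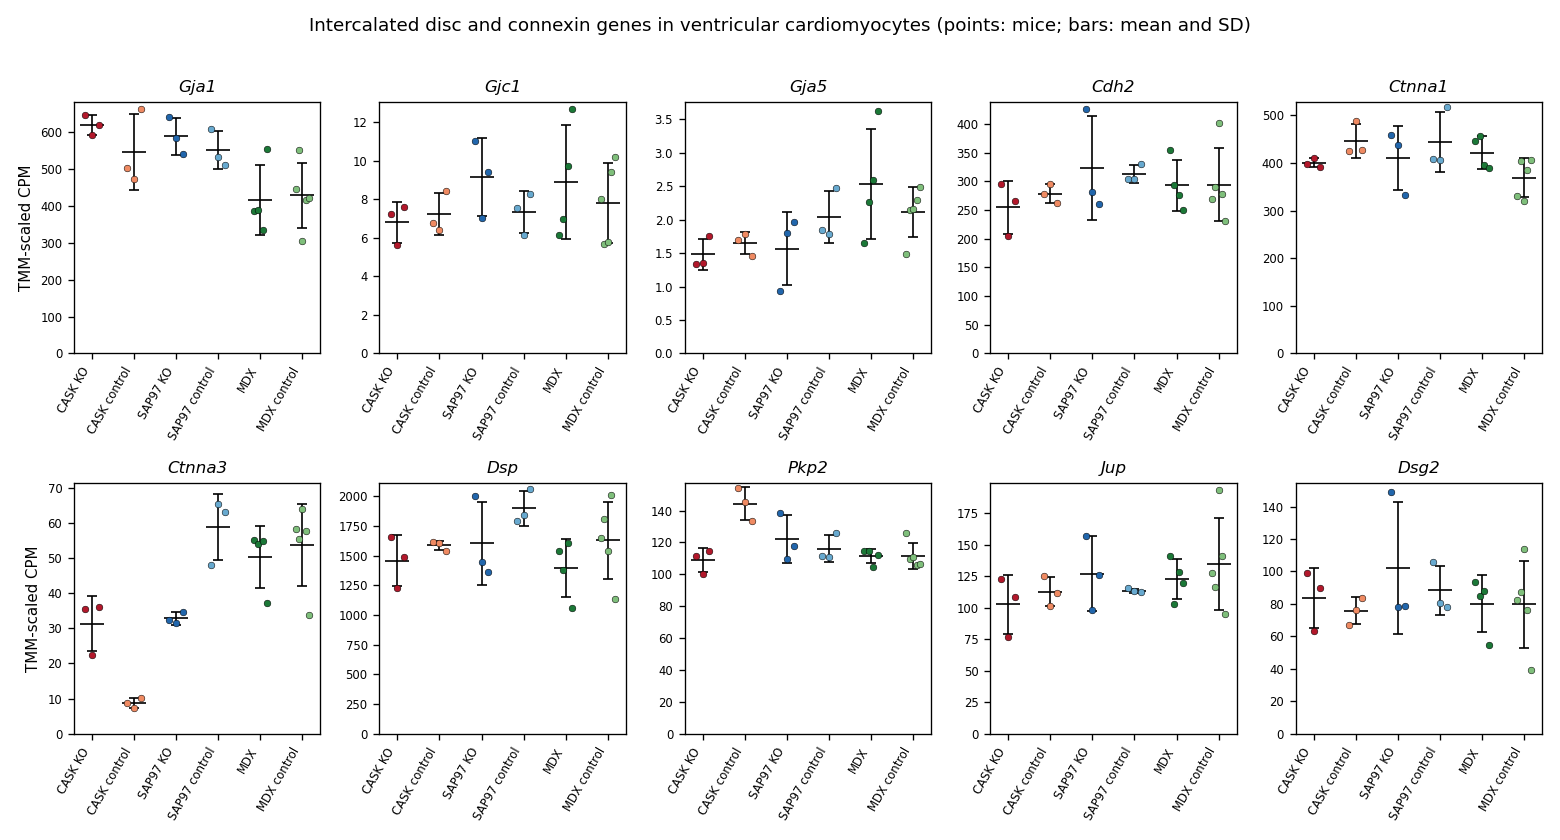
Level of each of the 10 members in TMM-scaled CPM (vertical axes, from 0) by group (horizontal axes); points are mice and bars give the mean and SD. Ctnna3 is the panel in which a group stands apart, with CASK control at 7.41 to 10.2 CPM against at least 22.4 CPM in every other mouse.

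CASK KO cardiomyocytes held more Ctnna3 mRNA than CASK control cardiomyocytes. Ctnna3 had 35.5, 22.4 and 36.2 CPM in CASK KO (1376, 848 and 1343 counts), against 8.66, 7.41 and 10.2 CPM in CASK control (368, 249 and 378 counts). Every CASK KO mouse lay above every CASK control mouse, and the KO mean was 357% of the control mean. The log2 fold change of Ctnna3 was 1.86 ± 0.23 (SE), with an unadjusted p of 3.89e-05 and an adjusted p of 0.0971 by edgeR's quasi-likelihood test, which missed the threshold of 0.01. At this threshold edgeR called 0% of the 14963 genes tested, and thus no member. An unadjusted p under 0.05 was found by edgeR for 8.84% of genes, among them Ctnna3 and Pkp2. In bulk RNA, fewer cells of a type and less RNA per cell cannot be told apart.

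Ctnna3 passed the threshold in 5 of 13 other settings. Same-numbered CASK mice deviated together from their group means. In edgeR, blocking on that number gave a log2 fold change of 1.84 ± 0.14 and an adjusted p of 0.00493. That model called 0.0735% of genes. The labels do not state this pairing, which was read from the same expression values. The call with the block is therefore not separate evidence for the difference. An edgeR model of all 6 groups and 21 libraries gave 1.84 and an adjusted p of 3.75e-04 (0.0563% of genes called). DESeq2 gave 1.84 and an adjusted p of 2.03e-09 (0.744% called), and edgeR without a filter on low counts an adjusted p of 1.82e-08 (0.608% called). With other scaling in edgeR (DESeq2 size factors or upper quartile), Ctnna3 was not called, with adjusted p of 0.0983 and 0.0998. It was also not called in any of the 6 edgeR fits that left out 1 library, with log2 fold changes between 1.74 and 2.06 and adjusted p of 0.0201 (without CASK KO replicate 2) to 0.612 (without CASK control replicate 2).

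SAP97 KO cardiomyocytes lay on the other side of their controls. Ctnna3 had 32.2, 31.4 and 34.7 CPM in SAP97 KO (996, 891 and 1204 counts), against 47.9, 65.4 and 63.1 CPM in SAP97 control (1531, 2016 and 1908 counts). Every SAP97 KO mouse was below every SAP97 control mouse, at 55.8% of the control mean. The log2 fold change of Ctnna3 was -0.81 ± 0.15 (SE), with an unadjusted p of 4.79e-04 and an adjusted p of 0.254 by edgeR. Here edgeR called 0.0204% of 14722 genes, none of them a member, and 7.97% had an unadjusted p under 0.05. By DESeq2 Ctnna3 was called (log2 fold change -0.86, adjusted p = 0.00118, 0.259% of genes called), and edgeR without a filter gave an adjusted p of 4.9e-04 (0.486% called). Over all 13 other settings it was called in 3, with adjusted p up to 0.820.

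MDX cardiomyocytes overlapped with their controls. Ctnna3 had 55.1, 53.9, 54.7 and 37.2 CPM in MDX, against 58.3, 55.3, 63.9, 57.5 and 33.6 CPM in MDX control. The lowest value in either group came from replicate 5, the backcrossed mouse. The log2 fold change was -0.10 ± 0.20 (SE), with an adjusted p of 1.00 by edgeR, and it was 0.02 without MDX replicate 5. Of 14994 genes, edgeR called 0% and 2.72% had an unadjusted p under 0.05, none of them a member. DESeq2 called 0.101% of genes and no member.

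**Figure D2:**
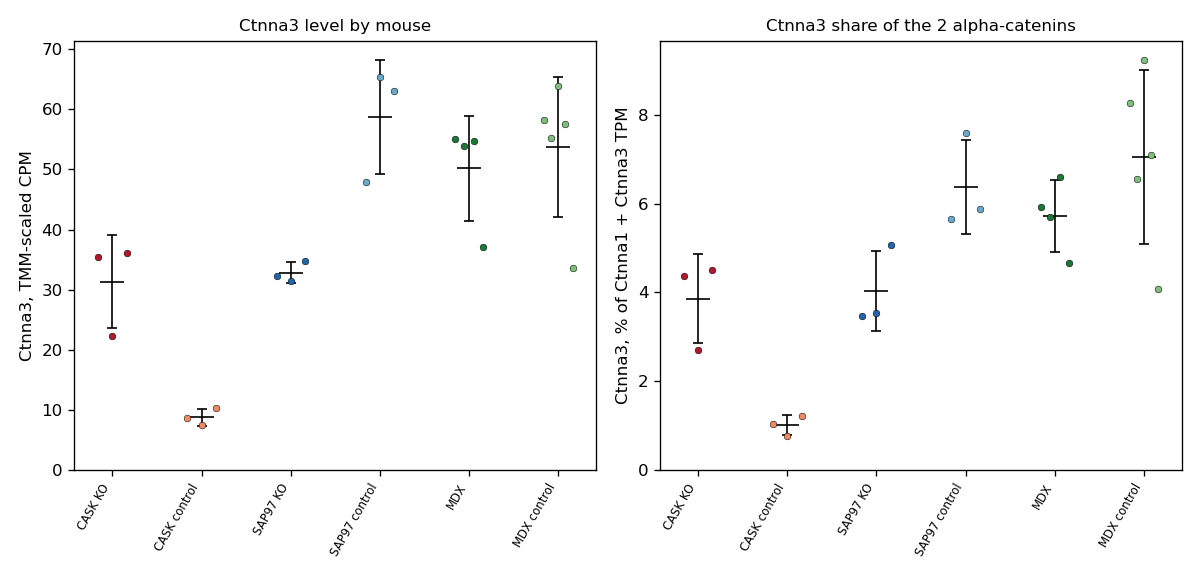
Ctnna3 in each mouse by group (horizontal axes), as TMM-scaled CPM (left) and as a percentage of the summed TPM of Ctnna1 and Ctnna3 (right); points are mice and bars give the mean and SD. CASK control mice lie lowest on both scales, at 7.41 to 10.2 CPM and 0.772 to 1.21%.

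The effects on Ctnna3, each relative to its own controls, differed between knockouts in interaction contrasts of 1 edgeR model of the 21 libraries. By the labels, Cre differs within the SAP97 comparison but not within the CASK comparison. The effect of CASK KO minus that of SAP97 KO was 2.68 ± 0.32 (log2 scale, ± SE), with an adjusted p of 1.55e-04, in a contrast that called 0.325% of 15985 genes. The effect of CASK KO minus that of MDX was 1.93 ± 0.30, with an adjusted p of 0.00355 (0.0751% of genes called). This second call was lost without any 1 of 7 libraries, namely CASK control replicates 1 and 2, CASK KO replicates 1 and 3, MDX control replicates 1 and 3, or MDX replicate 5, with values of 1.81 to 1.95 and adjusted p of 0.0114 to 0.0253. The effect of SAP97 KO minus that of MDX was -0.75 ± 0.29, with an adjusted p of 0.871. That contrast called 0.00626% of genes and no member by edgeR, and 0.0765% and no member by DESeq2, while 5.23% of genes, Ctnna3 among them, had an unadjusted p under 0.05. The other 9 members were not called in any of these contrasts.

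CASK control stood below the other control groups in Ctnna3. It averaged 8.77 ± 1.42 CPM, against 58.8 ± 9.52 CPM in SAP97 control, a log2 fold change of -2.74 ± 0.24 with an adjusted p of 7.12e-07 by edgeR (1.62% of genes called). CASK control was also below MDX control, which averaged 53.7 ± 11.7 CPM, with a log2 fold change of -2.61 ± 0.23 and an adjusted p of 4.45e-07 (2.2% called). SAP97 control and MDX control differed by 0.13 ± 0.20, with an adjusted p of 0.886. In that contrast edgeR called 0.282% and DESeq2 0.426% of genes, and 9.45% had an unadjusted p under 0.05, none of them a member. CASK KO (31.3 ± 7.79 CPM) and SAP97 KO (32.8 ± 1.74 CPM) overlapped, and so did MDX (50.2 ± 8.72 CPM) with MDX control and SAP97 control. The control groups differ in line, background and, by the labels, Cre, which cannot be told apart.

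By the labelled genotypes, the 9 mice with Cre had 7.41 to 36.2 CPM of Ctnna3 (median 31.4), and the 12 mice without Cre had 33.6 to 65.4 CPM (median 55.2). Only MDX control replicate 5 of the mice without Cre lay within the range of those with Cre. The mice with Cre were all of the CASK and SAP97 lines, and most of those without Cre were of the MDX line. Among mice with Cre, CASK control averaged 8.77 CPM and CASK KO 31.3 CPM. Cre, line and background cannot be told apart here, so neither set holds replicates of a single condition. For each of the other 9 members the ranges with and without Cre overlapped. Gja1 had medians of 592 CPM with Cre and 435 CPM without Cre. By group, Gja1 averaged 551 CPM in SAP97 control, without Cre, and 547 CPM in CASK control, with Cre. It averaged 416 CPM in MDX and 429 CPM in MDX control, both without Cre.

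Reads of neighbouring genes were looked at, since Ctnna3 spans 1574 kb, more than any other member, and holds Lrrtm3 (chr10:63928472-64090277), which encodes a neuronal membrane protein, on the opposite strand. The 2 genes share 0 exonic bases in GENCODE vM21. Lrrtm3 averaged 3.55 ± 2.84 CPM in CASK KO against 1.40 ± 0.57 CPM in CASK control (SD, n = 3 each). It averaged 5.81 ± 1.85 CPM in SAP97 KO against 4.11 ± 4.30 CPM in SAP97 control (SD, n = 3 each). Both pairs of groups overlapped, with 1.37 to 6.76 CPM in CASK KO and 0.774 to 1.88 CPM in CASK control. Adjusted p by edgeR was 0.561 in CASK KO and 0.834 in SAP97 KO.

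Genes with a profile like that of Ctnna3 were ranked by Pearson's r of log2 CPM over the 21 libraries, among 12319 genes. The 5 closest were Erbb4 (r = 0.97), a neuregulin receptor, Dpyd (0.97), an enzyme of pyrimidine breakdown, Pard3b (0.96), a polarity protein, Kcnv2 (0.94), a potassium channel subunit, and Ssbp2 (0.93), a single-stranded DNA-binding protein. Libraries share groups and lines, so these values describe the set and carry no test. Erbb4 averaged 13.1 CPM in CASK KO and 4.49 CPM in CASK control, and 15.4 CPM in SAP97 KO and 22.02 CPM in SAP97 control. Dmd followed the same order outside the MDX line, with 173.9 CPM in CASK KO against 47.3 CPM in CASK control and 186 CPM in SAP97 KO against 345 CPM in SAP97 control.

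**Figure D3:**
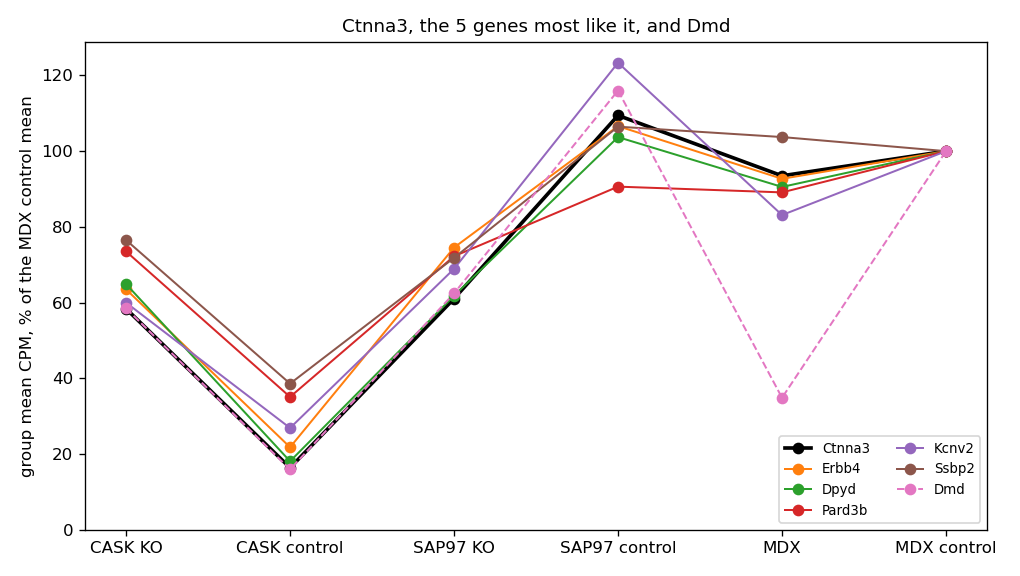
Group mean CPM of Ctnna3, of the 5 genes with the highest correlation with it and of Dmd, as a percentage of each gene's MDX control mean (vertical axis, from 0), by group (horizontal axis); lines only join the points of 1 gene. In CASK control all 7 genes lie lowest, at 15.9 to 38.6%, except that Dmd, the gene mutated in MDX, is also low in MDX at 34.8%.

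Genomic span was then compared, a measure taken up after these genes had been seen and given here without a test. Ctnna3, Dmd (2257 kb), Erbb4 (1076 kb), Pard3b (1003 kb) and Dpyd (871 kb) are long, whereas Ssbp2 spans 243 kb and Kcnv2 14.6 kb. Of the 129 genes over 500 kb tested in the CASK comparison, 64.3% had a positive log2 fold change, with a median of 0.12, against 52.0% and a median of 0.01 over all genes with a span. In the SAP97 comparison, 64.1% of 117 such genes had a positive log2 fold change, with a median of 0.14, against 54.7% and 0.03 over all genes with a span. Of shorter genes in the SAP97 comparison, 51.8% under 50 kb, 62.8% at 50 to 200 kb and 68.6% at 200 to 500 kb were positive. Ctnna3 (-0.81), Dmd (-0.86), Dpyd (-0.71) and Erbb4 (-0.48) were negative there. In the MDX comparison, 39.7% of 121 genes over 500 kb were positive, against 48.2% over all genes with a span. The part of span in these values was not tested. The other 9 members span 20.1 to 220 kb.

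Other measures were also compared in the CASK line. The nuclear RNAs Malat1 and Neat1 summed to 2694 to 5316 CPM in CASK KO, against 1327 to 1818 CPM in CASK control. They summed to 2664 to 5310 CPM in SAP97 KO against 1015 to 5746 CPM in SAP97 control, and these ranges overlapped. Reads outside annotated features made up 4.24 to 12.6% in CASK KO and 3.17 to 5.73% in CASK control, which overlapped. Only CASK KO replicate 1, at 12.6%, lay above the control range. The 12 atrial and conduction system markers summed to 632 to 684 CPM in CASK KO and 991 to 1579 CPM in CASK control, with 0 or 1 of them at 0 in CASK KO and 1 in CASK control. Of the 9 tested, 4 had a positive log2 fold change in CASK KO, such as Hcn4 (0.49) and Cacna2d2 (0.82), and 5 a negative one, with Nppa, the atrial natriuretic peptide gene, lowest at -3.38. None of them was called. The 13 endothelial markers, none of them at 0, summed to 354 to 394 CPM in CASK KO and 213 to 338 CPM in CASK control. The part of these measures in the Ctnna3 values was not tested.

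Gja1, which encodes connexin 43, the main ventricular gap junction protein, made up most connexin mRNA. It accounted for 92.2 to 97.2% of the summed TPM of the connexins in every library. Gja1 had 648, 592 and 619.5 CPM in CASK KO against 504, 473 and 664 CPM in CASK control, and 643, 585 and 542 CPM in SAP97 KO against 610, 533 and 511 CPM in SAP97 control. In MDX it had 387, 390, 334 and 554 CPM, against 448, 552, 306, 416 and 423 CPM in MDX control. All 3 pairs of groups overlapped. Log2 fold changes were 0.20 ± 0.19, 0.13 ± 0.14 and -0.05 ± 0.21 (SE), and the smallest adjusted p was 0.796 by edgeR. The 5 genes most like Gja1 over the libraries were Mgat1 (r = 0.90), Pgap2 (0.84), Slc7a4 (0.84), Rnf146 (0.83) and Kdm5a (0.83), with no test.

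The connexin that ranked next was Gja3, which encodes connexin 46 and was taken from the list of other connexins, at 7.21 ± 1.76 TPM (SD, n = 21). Gjc1 (connexin 45, known from the conduction system and the embryonic heart) accounted for 0.569 to 1.67% and Gja5 (connexin 40, known from atria, conduction system and arterial endothelium) for 0.0757 to 0.387% of connexin TPM. Gja4 (connexin 37, known from endothelium) averaged 1.73 ± 0.667 TPM. No counts were found for Gjd2 in any library.

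Gjc1 had 11.0, 7.01 and 9.43 CPM in SAP97 KO, against 7.57, 6.13 and 8.27 CPM in SAP97 control, with a log2 fold change of 0.36 ± 0.20 and an adjusted p of 0.670 by edgeR. Gja5 rested on 29 to 101 counts per library, and its log2 fold changes were -0.13 ± 0.24 in CASK KO, -0.33 ± 0.34 in SAP97 KO and 0.26 ± 0.26 in MDX. None of these passed the test. The 7 arterial endothelial markers, a list that holds Gja4, summed to 13.6 to 45.4 CPM over all libraries.

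Cdh2, which encodes N-cadherin, had 295, 205 and 265 CPM in CASK KO and 279, 295 and 262 CPM in CASK control. Its log2 fold changes were -0.10 ± 0.18 in CASK KO, 0.08 ± 0.19 in SAP97 KO and -0.01 ± 0.19 in MDX, and each changed sign without 1 or more single libraries. Ctnna1, the alphaE-catenin found in most cell types, had 398, 411 and 392 CPM in CASK KO, against 426, 488 and 427 CPM in CASK control. These groups did not overlap, but the log2 fold change was -0.14 ± 0.15, with an adjusted p of 0.874 by edgeR. It was -0.08 ± 0.16 in SAP97 KO and 0.19 ± 0.15 in MDX. In the CASK comparison 14.3% of all genes had groups that did not overlap, and among the members these were Ctnna1, Ctnna3 and Pkp2.

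In SAP97 KO against SAP97 control, 12.9% of genes had groups that did not overlap, of the members Ctnna3 alone, and in MDX against MDX control 1.25% of genes and no member. Ctnna3 made up 3.86 ± 1.00% of the summed TPM of both alpha-catenins in CASK KO against 1.00 ± 0.22% in CASK control, and 4.03 ± 0.90% in SAP97 KO against 6.38 ± 1.06% in SAP97 control (SD, n = 3 each). In MDX and MDX control its share was 5.73 ± 0.81% (n = 4) and 7.05 ± 1.96% (n = 5).

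Among the desmosome genes, Pkp2 had the next lowest p after Ctnna3. It had 112, 100.2 and 115 CPM in CASK KO, against 154, 146 and 134 CPM in CASK control, where every KO mouse was below every control mouse. The log2 fold change of Pkp2 was -0.39 ± 0.14 (SE), with an unadjusted p of 0.0278 and an adjusted p of 0.485 by edgeR, so the difference did not pass the test. In SAP97 KO Pkp2 had 139, 109.8 and 118 CPM against 111, 111 and 126 CPM in SAP97 control. CASK control relative to SAP97 control had a log2 fold change of 0.32 ± 0.13 for Pkp2 (adjusted p = 0.215 by edgeR). Relative to MDX control the value for Pkp2 was 0.37 ± 0.11 (adjusted p = 0.0623 by edgeR). DESeq2 called Pkp2 only relative to MDX control, in a contrast where it called 3.82% of 18260 genes. SAP97 KO replicate 1 lay within the range of CASK control.

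Dsp, which links the plaque to desmin, had 1656, 1227 and 1493 CPM in CASK KO and 1617, 1605 and 1540.0 CPM in CASK control. Its log2 fold changes were below 0 in all 3 comparisons, at -0.10 ± 0.19 in CASK KO, -0.21 ± 0.17 in SAP97 KO and -0.22 ± 0.21 in MDX, with adjusted p of 0.740 or more. The value in CASK KO changed sign without CASK KO replicate 2. Dsp made up 70.5 to 81.0% of the summed TPM of the 4 desmosome members. Jup, or plakoglobin, which is shared by desmosomes and adherens junctions, had log2 fold changes of -0.11 ± 0.21, 0.20 ± 0.17 and -0.13 ± 0.21 in the same order. Dsg2, a desmosomal cadherin, had 0.17 ± 0.20, 0.24 ± 0.25 and 0.00 ± 0.28.

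By coefficient of variation of CPM over the libraries, Dsg2 (26.3%) came after Ctnna3 (44.7%) and Gja5 (29.4%). Dsg2 had 149 CPM in SAP97 KO replicate 1, against 78.3 and 79.0 CPM in the other SAP97 KO mice, and 39.3 CPM in MDX control replicate 5, against 76.0 to 114 CPM in the other MDX control mice. With group means removed, log2 CPM of Dsg2 correlated with that of Cdh2 (r = 0.83), Dsp (0.76) and Jup (0.73) over the 21 libraries, and Ctnna3 with Dsp (0.68). These libraries share lines and scaling, and the values are given as a description. The positions in GRCm38 are chr18:20558074-20604521 for Dsg2, chr18:16588877-16809246 for Cdh2, chr18:35118859-35254779 for Ctnna1, chr13:38151294-38198577 for Dsp, chr16:16213318-16272712 for Pkp2, chr11:100368958-100397763 for Jup, chr11:102799579-102819700 for Gjc1 and chr3:96904693-97077416 for Gja5.

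**Figure D4:**
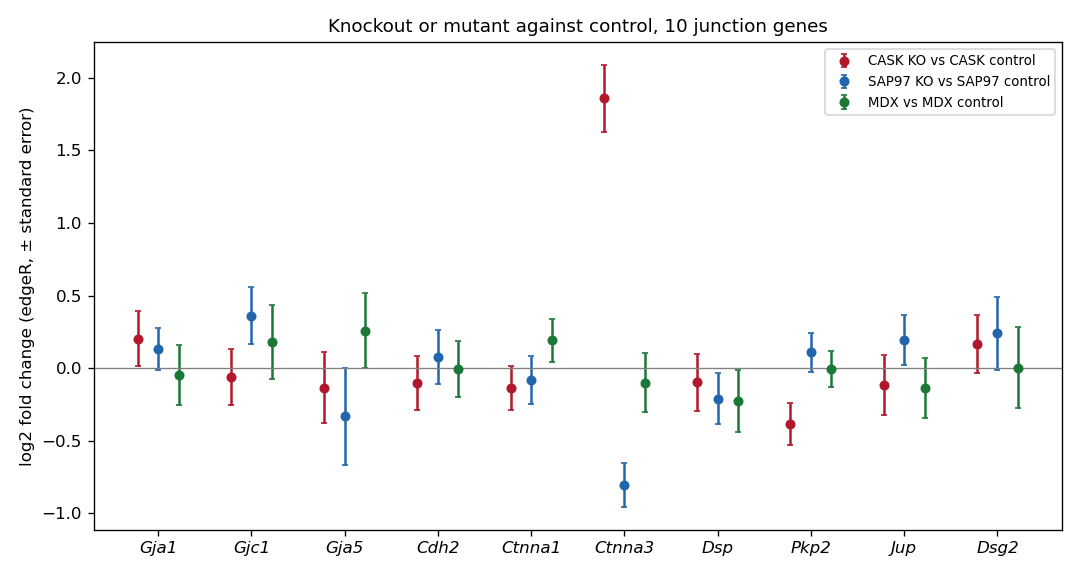
Log2 fold change (vertical axis) of each member (horizontal axis) in CASK KO, SAP97 KO and MDX, each against its control; points are edgeR estimates and bars 1 standard error. Apart from Ctnna3, at 1.86 in CASK KO and -0.81 in SAP97 KO, the values lie between -0.39 and 0.36.

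As a group, the members did not shift in 1 direction. In CASK KO 3 had positive and 7 negative log2 fold changes, with a median of -0.10 against 0.01 over all genes tested. In SAP97 KO 6 were positive and 4 negative, with a median of 0.09 against 0.03, and in MDX 4 were positive and 6 negative, with medians of -0.01 and -0.01.

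Genes from 4 lists of other junction proteins were set beside them. Of 20 other connexins and pannexins 4 were tested, of 15 other desmosome genes 5 or 6, of 20 other adherens junction genes 17 and of 29 other disc proteins 28, and none of these was called by edgeR in CASK KO, SAP97 KO or MDX. At an unadjusted p under 0.05, 8 of these genes were lower and 0 higher in CASK KO, 0 lower and 5 higher in SAP97 KO, and 1 lower and 2 higher in MDX. Over all genes tested, the shares at this p were 8.84% in CASK KO (678 higher and 645 lower), 7.97% in SAP97 KO (690 higher and 483 lower) and 2.72% in MDX (192 higher and 216 lower). The other disc proteins had a median log2 fold change of -0.24 in CASK KO, 0.13 in SAP97 KO and -0.07 in MDX.

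By level, the leading genes of these lists were Csrp3 (661 TPM), Actn2 (536 TPM) and Nrap (215 TPM) among the disc proteins, Des (515 TPM), Perp (89.0 TPM) and Pkp4 (18.0 TPM) among the desmosome genes, and Lmo7 (53.7 TPM), Ctnnb1 (53.3 TPM) and Vcl (29.4 TPM) at adherens junctions. Des, which encodes desmin, averaged 1047 ± 143 CPM in CASK KO against 1802 ± 541 CPM in CASK control, with a log2 fold change of -0.76 ± 0.26 and an adjusted p of 0.424 by edgeR, while the other 4 groups averaged 988 to 1078 CPM. Nrap, an actin-binding protein of the disc, had -0.60 ± 0.18 (adjusted p = 0.384), Perp -0.74 ± 0.18 (adjusted p = 0.268) and Panx1, a channel protein related to connexins by function, -1.60 ± 0.34 (adjusted p = 0.237). For these genes too, CASK control had the highest group mean. Nrap averaged 939 CPM there against 595 to 703 CPM in the other groups, and Perp 153 CPM against 75.9 to 104 CPM. Panx1 averaged 1.22 CPM against 0.382 to 0.449 CPM, and had only 10 to 20 counts per library in CASK KO. Ctnnb1, or beta-catenin, which binds alpha-catenins, had -0.11 ± 0.15 in CASK KO, -0.11 ± 0.14 in SAP97 KO and 0.12 ± 0.17 in MDX.

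Synm, which encodes the intermediate filament protein synemin, was among the genes of these lists whose effects differed between lines, and was named after its values were seen. The effect of CASK KO minus that of SAP97 KO was -2.08 ± 0.36 for Synm (adjusted p = 0.00495, edgeR), so it lay opposite to Ctnna3. Relative to SAP97 control the log2 fold change of Synm was 2.002 ± 0.258, and relative to MDX control Des (0.86 ± 0.18), Perp (1.01 ± 0.17) and Synm (1.60 ± 0.22) were among the genes called higher in CASK control.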

How the data were processed

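RNA-seq counts of isolated ventricular cardiomyocytes were used from 21 of 22 deposited libraries. MDX replicate 1 was left out, as in the study, for its low read number. The authors depleted ribosomal RNA, aligned read pairs to GRCm38 and deposited raw counts per gene, made with HTSeq 0.6.1 after TopHat2 2.0.13, per the submitters' processing notes. The labels mention poly-A selection for wild-type samples, which the methods do not. The summary sheet names annotation release 87. Whether counting used strand is not given in the sources used here. The authors' own fold changes and p-values were not used.

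In the deposited table of all conditions, the columns of replicates 4 and 5 of MDX and MDX control are not aligned with the gene identifiers, so counts were taken from the 3 comparison sheets (47069, 47069 and 49671 genes). TPM were computed from these counts and the deposited exon lengths. The joint model used the 45956 genes whose counts in the 2 annotation releases were within a ratio of 1.1.

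Tests used edgeR 4.0.16 in R 4.3.3 (filterByExpr, TMM, quasi-likelihood F test, 2-sided), with p-values adjusted by Benjamini-Hochberg over all genes tested and a threshold of 0.01, and were tested on simulated data. DESeq2 1.42.0, other scaling, no filter, a replicate block and leaving out each library were alternatives. The standard error is the log2 fold change over the square root of F. Same-numbered CASK mice correlated in their deviations from the group means in 3 of 3 pairs (r of 0.26 to 0.50), which the data show and the labels do not state, whereas those of the SAP97 (-0.34 to 0.03) and MDX (-0.09 to 0.71) lines did not in every pair. Correlations used log2(CPM + 0.5) and genes with a mean of at least 1 CPM. Named were the 10 members, the 3 genes with the highest TPM of each other list and any called gene of it, and the 5 genes most like Ctnna3 and Gja1. Members and lists were chosen with earlier results of these data known. Gjd2, Lrrtm3, Synm and the spans were taken up after values were seen. Positions are from GENCODE vM21. Plots were drawn with matplotlib 3.10.9.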

Additional observations from a re-analysis of the deposited data

Results flagged for a closer look

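The effects of CASK KO and SAP97 KO on Ctnna3 differed by 2.68 on the log2 scale in the interaction test, and those of CASK KO and MDX by 1.93. Each effect is relative to the line's own controls. CASK KO (31.3 CPM) and SAP97 KO (32.8 CPM) overlapped, whereas CASK control averaged 8.77 CPM and SAP97 control 58.8 CPM. By the labels, CASK control carried Cre and SAP97 control did not, so Cre and the deletions cannot be told apart in this contrast.

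Single mice also stood apart from their group. Ctnna3 had 37.2 CPM in MDX replicate 5, against 53.9 CPM in the next mouse, and 33.6 CPM in MDX control replicate 5, against 55.3 CPM in the next. These are the backcrossed mice of both groups. Pkp2 had 125.8 CPM in MDX control replicate 1, against 110.6 CPM in the next. The 10 members were screened in the MDX and MDX control groups only, and chance alone marks about 1 in 20 such sets.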

How the results depend on the processing

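Of 779 values under alternative settings, 714 kept their direction and their side of the threshold. For CASK KO against CASK control, the number of members called, 0 by edgeR, was 1 (Ctnna3) with the replicate block, in 1 model of 6 groups, without a filter on low counts, and by DESeq2 with or without a fold change prior. For SAP97 KO it was 1 (Ctnna3) without a filter and by both forms of DESeq2. For CASK control against MDX control DESeq2 called 2 members (Ctnna3 and Pkp2), and 3.82% of all genes. Leaving out single libraries gave 0 to 1 members called for the effect of CASK KO minus that of MDX. The block changed no other call of a member. Of all genes, edgeR called 0 in CASK KO, against 11 with the block, 9 in 1 model, 182 without a filter and 118 and 115 by DESeq2. In SAP97 KO these were 3, against 0, 6, 134, 46 and 46, and in MDX 0, against 0, 7, 6, 19 and 17. Without a filter and by DESeq2, the effect of CASK KO minus that of SAP97 KO had 125 and 154 called genes against 52, that of CASK KO minus MDX 69 and 48 against 12, and that of SAP97 KO minus MDX 21 and 13 against 1 (2 with the block). CASK control had 476 and 564 called genes against 259 relative to SAP97 control, and 701 and 697 against 352 relative to MDX control. SAP97 control had 103 and 86 against 45 relative to MDX control, and 115 with all genes of both releases. Leaving out single libraries gave 20 to 77 called genes for the effect of CASK KO minus that of SAP97 KO, 3 to 24 for that of CASK KO minus MDX, 105 (without CASK control replicate 2) to 339 for CASK control against SAP97 control, 151 (without CASK control replicate 2) to 365 for CASK control against MDX control, and 20 (without SAP97 control replicate 3) to 50 for SAP97 control against MDX control. Why settings differed was not tested.

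Values near 0 changed sign, none of them called. Leaving out single libraries, log2 fold changes in CASK KO were between -0.24 and 0.037 for Cdh2, -0.21 and 0.017 for Dsp, -0.16 and 0.068 for Gjc1, and -0.28 and 0.064 for Jup. In SAP97 KO they were between -0.16 and 0.18 for Cdh2, -0.16 and 0.022 for Ctnna1, and -0.12 and 0.39 for Dsg2. In MDX they were between -0.11 and 0.14 for Cdh2, -0.23 and 0.020 for Ctnna3, -0.17 and 0.18 for Dsg2, -0.21 and 0.059 for Gja1, -0.036 and 0.32 for Gjc1, -0.24 and 0.039 for Jup, and -0.025 and 0.029 for Pkp2. Ctnna3 in SAP97 control against MDX control lay between -0.017 and 0.25. In MDX, Dsg2 was -0.0091 with DESeq2 size factors, -0.0027 with upper-quartile scaling, -0.00011 and -7.6e-05 by DESeq2 without and with a prior, and -0.037 without the backcrossed mice. Without a filter, Cdh2 was 0.012 and Pkp2 0.0073 in MDX, and with the replicate block Pkp2 was 0.044.

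With 3 to 5 mice per group, changes of the size seen for most members could not be told from the spread between mice. Counts per gene do not resolve isoforms or start sites, and Gja5 rested on 101 counts or fewer per library.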
